A study of Mus musculus with 10 samples.

Results

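Whole-genome expression was compared between 2 sets of cystic fibrosis knockout mice that differ in the number of their sample titles. Knockouts CHN531, CHN532, CHN537, CHN538 and CHN539 (5 arrays) were set against knockouts CHN308, CHN309 and CHN310 (3 arrays), chosen by title alone. They are all 8 knockouts among the 10 arrays analysed here. All 8 are, per the labels, B6xBALB F2 mice that lack Cftr, and no treatment or age is given for any of them. The other 2 arrays are controls CHN312 and CHN313 from the same cross, which took no part in the comparison and are given beside it. What the number codes, such as a litter, a date or a hybridization, is not stated, so the number range is only a label here. Title codes add a letter, M or F (4 M and 1 F in CHN531 to CHN539, 1 M and 2 F in CHN308 to CHN310) and a second one, H or L (3 H and 2 L against 2 H and 1 L), which the labels do not spell out. H and L are nearly balanced. M and F are not, so the letter M or F was kept in the model. Both controls carry D in place of H or L.

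Cftr encodes the chloride and bicarbonate channel of epithelial cells, and its loss in mice gives an intestinal disease with thick mucus, bacterial overgrowth and poor growth, whose severity depends on genetic background. F2 animals are the grandchildren of a cross between a pair of inbred strains, and each inherits its own mixture of the parental alleles. Knockouts of such a cross can therefore differ from one another in many genes. An expression array reads each gene through probe sets, groups of short oligonucleotides that each match a stretch of the transcript. A gene with several probe sets is therefore measured more than once on the same array. The array also carries control probe sets for ribosomal RNA, for bacterial transcripts and for the 3′ and 5′ ends of long mouse transcripts, which follow the preparation and hybridization of the RNA.

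The values are linear intensities as the authors deposited them, and differences are log2(intensity + 16) in CHN531 to CHN539 minus CHN308 to CHN310, adjusted for the letter M or F. Array medians of the 8 knockouts lay between 18.4 and 18.8, and the number of arrays limits the precision. Cftr was low in all 8 knockouts, at 34.5, 30.5, 33.9, 19.7 and 35.4 in CHN531, CHN532, CHN537, CHN538 and CHN539 and at 20.7, 21.2 and 29.1 in CHN308, CHN309 and CHN310, against 131 and 137 in controls CHN312 and CHN313. Below, values of knockouts follow this same order. The letter fitted the sex-linked genes: Xist, the RNA that silences an X chromosome in females, lay between 713 and 1521 in the 3 F knockouts and between 5.55 and 6.53 in the 5 M knockouts. Per the labels the source was whole right lung, but transcripts of the gut epithelium were bright on all 8 arrays. Vil1, which bundles actin in brush-border microvilli, measured 2605 to 2999 in CHN531 to CHN539 and 2422 to 2673 in CHN308 to CHN310, and Fabp2, which carries fatty acids in enterocytes, 3516 to 5178 and 3217 to 4345. The lung transcripts Sftpc and Scgb1a1 (surfactant protein C and club cell secretoglobin) were present as well, at 1381, 2377, 2148, 4169 and 1099 against 1496, 1302 and 3453 for Sftpc and at 2060.3, 4245, 3245, 5610.1 and 2011 against 2878, 2535 and 5155 for Scgb1a1. Both were highest in knockouts CHN538 and CHN310, one from each range. In RNA of whole tissue, fewer cells of a type and less RNA per cell cannot be told apart.

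Part of the control probe sets separated the number ranges. Of 64 array controls, 27 had no overlap between the 5 and the 3 arrays (7 higher and 20 lower in CHN531 to CHN539, 42.2%), against 15.5% of all 28315 probe sets tested. Many of the 64 read the 5′, middle and 3′ stretches of the same few transcripts, so they are not independent of one another. The 18S ribosomal RNA control at the 3′ end read 202, 272, 367, 199 and 212 in CHN531 to CHN539 and 45.7, 78.5 and 74.5 in CHN308 to CHN310, a difference of 1.68 ± 0.26 (SE, limma adjusted p = 0.0293). Every array of CHN531 to CHN539 lay above every array of CHN308 to CHN310, and controls CHN312 and CHN313 lay at 66.6 and 94.2. The middle probe set of 18S RNA differed by 1.72 ± 0.28 (limma adjusted p = 0.0323). The 5′ one differed by 1.66 ± 0.43 and did not pass (limma adjusted p = 0.114). 18S RNA carries no poly(A) tail, so a preparation primed on poly(A) reads little of it.

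Bacterial controls without overlap lay in both directions. Of 18 probe sets for Escherichia coli and phage P1 genes, 3 were higher in all 5 arrays of CHN531 to CHN539, all of them for bioD. A first 5′ probe set of bioD, a biotin synthesis gene, read 623, 681, 632, 785 and 836 in CHN531 to CHN539 and 224, 363 and 355 in CHN308 to CHN310 (difference 1.08 ± 0.18, limma adjusted p = 0.0372). The other 5′ probe set of bioD differed by 0.45 and did not pass (limma adjusted p = 0.215). Of its 3′ probe sets, 1 differed by 0.51 and did not pass (limma adjusted p = 0.154), and 1 overlapped between the ranges (difference 0.087). The median difference of the 18 was 0.093. The first 5′ bioD probe set and the 18S pair were the 3 array controls that passed, in a test that called 401 of all 28315 probe sets (1.42%). Of the 27 probe sets for Bacillus subtilis transcripts, 16 were lower in all 5 arrays of CHN531 to CHN539 than in all 3 of CHN308 to CHN310, and none passed in limma (16 of the 27 had an unadjusted p under 0.05). A 5′ probe set of dap, for example, read 27.5, 32.3, 18, 34.6 and 36.5 against 57.8, 79.8 and 69.5 (difference -0.88, limma adjusted p = 0.0576). Such transcripts are not made by a mouse.

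The ends of long transcripts differed too. The 3′ to 5′ ratio of Actb, the cytoplasmic beta actin, was 1.35, 1.29, 1.26, 1.36 and 1.36 in CHN531 to CHN539 and 1.19, 1.22 and 1.19 in CHN308 to CHN310. That of Tfrc, the transferrin receptor, was 3.18, 3.36, 2.97, 3.80 and 3.53 against 2.39, 2.88 and 2.64. Neither overlapped between the ranges, while the ratios of Gapdh and of Pcx, pyruvate carboxylase, did. Controls CHN312 and CHN313 stood at 1.17 and 1.26 for Actb and at 2.40 and 3.38 for Tfrc. In both ratios CHN313 lay within the range of CHN531 to CHN539. The part of these control differences in those of single genes was not tested.

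**Figure D1:**
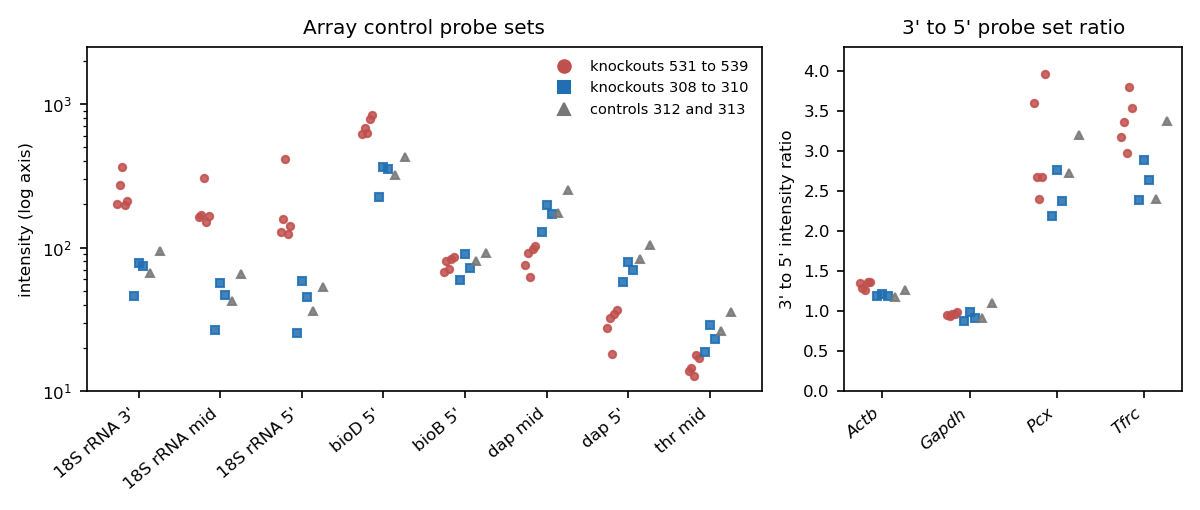
Intensity of 8 array control probe sets (left, log axis) and the 3′ to 5′ intensity ratio of 4 mouse transcripts (right), with 1 point per array: circles are knockouts CHN531 to CHN539, squares knockouts CHN308 to CHN310 and triangles controls CHN312 and CHN313. The 3 probe sets of 18S RNA and the 5′ bioD probe set that passed lie higher in all 5 arrays of CHN531 to CHN539, and both plotted dap probe sets lower. Of the ratios, those of Actb and Tfrc do not overlap between the knockout ranges, and control CHN313 lies with CHN531 to CHN539 in both.

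Over the genes, 45 of 13644 tested passed an adjusted p under 0.05 in limma (0.33%), with 25 higher (0.183%) and 20 lower (0.147%) in CHN531 to CHN539. The groups of these 45 do not overlap, against 11% of all genes tested, and 11.5% of all genes had an unadjusted p under 0.05. The median difference over all 13644 genes was -0.0073. Among all genes, 6.04% were higher and 5.45% lower at an unadjusted p under 0.05, and 5.24% and 5.78% were higher and lower without overlap. Only 7 of the 45 differed by more than 2-fold, 2 higher and 5 lower. The number of calls depends on single arrays: without knockout CHN532, the only F animal of its range, no gene passed (570 of 13644 had an unadjusted p under 0.05), and without CHN310, the only M animal of its range, 3 did. With the letter in the model, leaving out CHN532 compares the ranges within M animals only, 4 against 1. Leaving out CHN310 compares them within F animals only, 1 against 2. These drops therefore reflect the model as well as the array left out. The count was 23, 27 and 26 without CHN308, CHN309 and CHN531, and 19 without CHN538 and CHN310, the arrays highest in lung transcripts. With no covariate 197 genes passed, with both letters in the model 12, and among the M animals alone (4 against 1) none (508 had an unadjusted p under 0.05).

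Rpl27a, a protein of the large ribosomal subunit, had the greatest difference among the genes higher in CHN531 to CHN539. It read 134, 228, 143, 149.8 and 132 in CHN531, CHN532, CHN537, CHN538 and CHN539 and 28.5, 40.7 and 36.9 in CHN308, CHN309 and CHN310. The difference was 1.88 ± 0.16 (SE, limma adjusted p = 0.00652), 3.69-fold, and knockout CHN532 was the highest array. Raly, an RNA-binding protein of the heterogeneous nuclear ribonucleoprotein family, read 128, 132, 99.6, 126 and 120.0 against 54.7, 45.6 and 43.8. All 5 arrays were above all 3, and the difference was 1.16 ± 0.10 (limma adjusted p = 0.00652).

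Ap2b1, the beta subunit of the clathrin adaptor that sorts cargo at the plasma membrane, was lowest relative to CHN308 to CHN310 and had the smallest p of all genes. It read 92.8, 86.4, 77.8, 97.3 and 75.5 against 343, 322 and 334, with no overlap. The difference was -1.78 ± 0.097 (limma adjusted p = 0.00131), and controls CHN312 and CHN313 were higher still, at 413 and 395. Tmed9, a cargo receptor of vesicles between the endoplasmic reticulum and the Golgi, read 154, 145, 161, 145 and 128 against 414, 393 and 356 (difference -1.28 ± 0.093, limma adjusted p = 0.00534). Rab5c, a GTPase of early endosomes, read 120.0, 125, 89.9, 98.3 and 104 against 292, 259.7 and 265 (difference -1.15 ± 0.11, limma adjusted p = 0.00657). Both were lower in each array of CHN531 to CHN539. Max, the dimerization partner that Myc needs to bind DNA, read 55.1, 58.7, 35.8, 47.1 and 38.3 against 146, 115 and 146 (difference -1.22 ± 0.16, limma adjusted p = 0.0302). Epha1, an ephrin receptor tyrosine kinase of epithelia, read 43.5, 39.7, 41.8, 31.1 and 40.1 against 103, 96.7 and 108 (difference -1.12 ± 0.098, limma adjusted p = 0.00652). Knockout CHN538 was the lowest array for Epha1.

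**Figure D2:**
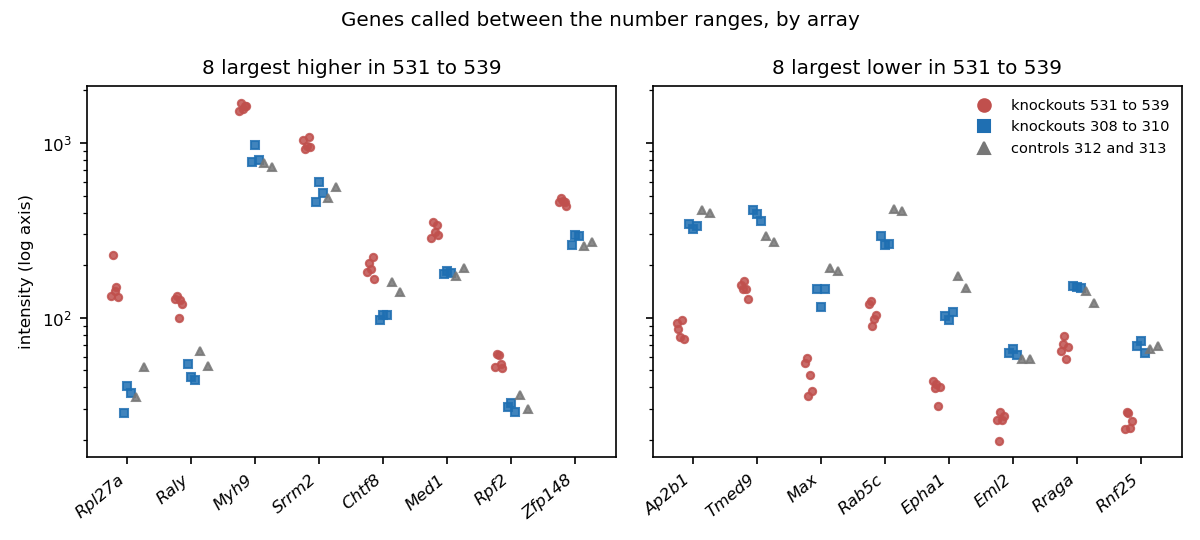
Intensity (log axis) of the 8 genes with the largest differences in each direction among the 45 that passed, with 1 point per array: circles are knockouts CHN531 to CHN539, squares knockouts CHN308 to CHN310 and triangles controls CHN312 and CHN313. For Ap2b1 the 5 circles lie at 75.5 to 97.3 and the 3 squares at 322 to 343; both triangles lie between the 2 sets for Chtf8, Tmed9, Eml2 and Rraga.

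The other genes of the 15 largest higher differences were smaller in fold and often bright. Myh9, the heavy chain of nonmuscle myosin IIA, lay at 1522 to 1694 in CHN531 to CHN539 and 776 to 975 in CHN308 to CHN310 (difference 0.96). Srrm2, a scaffold of nuclear speckles and the spliceosome, lay at 928 to 1074 against 457 to 595 (difference 0.88). Eif5, which triggers GTP hydrolysis during translation initiation, lay at 1066 to 1256 against 725 to 782 (difference 0.62). All 3 lie far above the array medians. Among transcription regulators, Med1, a subunit of the Mediator complex, lay at 285 to 353 against 178 to 185 (difference 0.80). Zfp148, a zinc finger factor of GC-rich promoters, lay at 437 to 483 against 260.3 to 296 (difference 0.67), and the GC-box factor Sp1 at 727 to 761 against 436 to 494 (difference 0.62). Taok1, a kinase upstream of stress-activated kinases, lay at 548 to 601 against 331 to 384 (difference 0.65). Sbno1, a homologue of the Drosophila strawberry notch helicase, lay at 433 to 459.7 against 250.3 to 294 (difference 0.63). The remaining ones were Chtf8 (0.85), a subunit of a clamp loader of DNA replication, and Rpf2 (0.68), an assembly factor of the large ribosomal subunit, with Agbl5 (0.66), a carboxypeptidase acting on tubulin tails, Ankhd1 (0.65) and Fam126b (0.64). Their limma adjusted p-values and those of the genes just named lay between 0.00657 (Myh9) and 0.0477 (Agbl5).

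Among the genes lower in CHN531 to CHN539, Rraga, a Rag GTPase that recruits the growth kinase mTORC1 to lysosomes, lay at 58 to 78.8 against 148 to 153 (difference -0.96). Vapb, which tethers the endoplasmic reticulum to other membranes, lay at 115 to 142 against 241 to 283 (difference -0.93). Trappc3, a subunit of the TRAPP complex that tethers vesicles, lay at 143 to 159.9 against 256 to 293 (difference -0.76). No list of vesicle traffic genes was among those described here, so these genes were not counted as a group. Pik3r1, the regulatory subunit of phosphoinositide 3-kinase, lay at 87.7 to 108 against 174 to 196 (difference -0.88). Aph1a, a component of gamma-secretase, lay at 113 to 152 against 254 to 326 (difference -0.88). Spr, sepiapterin reductase, which makes the cofactor tetrahydrobiopterin, lay at 66.5 to 101 against 157 to 185 (difference -0.81). Eml2, a microtubule-associated protein (-0.99), the ubiquitin ligase Rnf25 (-0.95), the zinc finger protein Zc3h7b (-0.87) and Prrc2a (-0.82) complete the 15 largest. The limma adjusted p-values of these 10 genes lay between 0.00534 (Rnf25) and 0.0477 (Spr). Of the 15 called genes with smaller differences, 10 were higher (AA386476, Alkbh5, Atg5, Dhx36, Gsk3b, Krit1, Malt1, Mtf2, Peg3 and Zfp644) and 5 lower (Laptm4a, Midn, Msl2, Nufip2 and Setd5), by 0.44 to 0.68 in size.

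The 2 control arrays lay nearer to knockouts CHN308 to CHN310 for most of the 45 genes. They were not in the fit, but their values counted in choosing each gene's probe set and in the filter. Both were on the side of CHN308 to CHN310 for 39 of the 45 genes, 20 of the 25 higher and 19 of the 20 lower. Over all 13644 genes tested this held for 44.1%, and for 59.2% of the 1504 genes whose ranges do not overlap. For 44 of the 45 genes both controls lay outside the range of the 5 arrays of CHN531 to CHN539. The share over all genes was not computed for this, so the count is a description only. Rpl27a read 35.4 and 52.6 in CHN312 and CHN313, Myh9 765 and 728 and Rab5c 419 and 406. The 6 exceptions, named after their values were seen, were Atg5, Chtf8, Fam126b, Nufip2, Peg3 and Sp1. For Chtf8 the controls lay at 159 and 140.4, between 97.2 to 104 in CHN308 to CHN310 and 167 to 221 in CHN531 to CHN539. For Fam126b they lay at 118 and 179, and CHN313 exceeded all 8 knockouts. The controls' numbers adjoin CHN308 to CHN310, and they differ from every knockout in genotype, so number and genotype cannot be told apart in them.

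For 41 of the 45 genes no second probe set passed in the same direction. Of these 45, 12 had only 1 tested probe set. Of the 33 called genes with another tested probe set, 4 (Epha1, Gsk3b, Pik3r1 and Zfp148) had another one that passed in the same direction when all 23925 probe sets with 1 gene symbol were tested. Srrm2 had another one that passed in the opposite direction. These 33 genes had 83 other probe sets, of which 61 had the same sign as the called one. That is 73.5%, against 61.1% of the 10281 such probe sets of all genes. The median size of the difference was 0.66 in the called probe sets of these 33 genes and 0.15 in the other 83. The called ones were selected by passing the threshold, and adding 16 understates differences of the dimmer others. Part of this gap therefore follows from the choice.

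In Ap2b1 the probe sets differed from one another. Its bright probe set 1452292_at separated the ranges as above. The second one, 1427077_a_at, read 109, 121, 110.3, 106 and 116 in CHN531 to CHN539 and 144, 109.7 and 116 in CHN308 to CHN310, overlapping sets of values (difference -0.061, limma adjusted p = 0.822). Tmed9 was alike, with 123, 109, 103, 118 and 103 against 115, 116 and 115 in its second probe set 1439448_x_at (difference -0.057, limma adjusted p = 0.810). For Epha1 the dimmer 1432399_a_at moved with the called one, at 13.4, 18.3, 15.3, 12.8 and 12.9 against 28.5, 31 and 27.9 (difference -0.50 ± 0.07, limma adjusted p = 0.0241). For Srrm2 the bright 1438688_at was higher in CHN531 to CHN539, by 0.88, and 1427902_at was lower, at 68, 52.1, 65.6, 68.2 and 70.2 against 118, 107 and 146 (difference -0.93 ± 0.063, limma adjusted p = 0.00438). Pik3r1 had 2 probe sets lower in CHN531 to CHN539, 1438682_at (-0.88) and 1425515_at (-1.0), and 2 others, 1425514_at and 1451737_at, with differences of 0.59 and 0.37 that did not pass (limma adjusted p = 0.336 and 0.565). Of 5 probe sets of Myh9, 1420172_at passed and 2 of the other 4 had a negative difference.

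**Figure D3:**
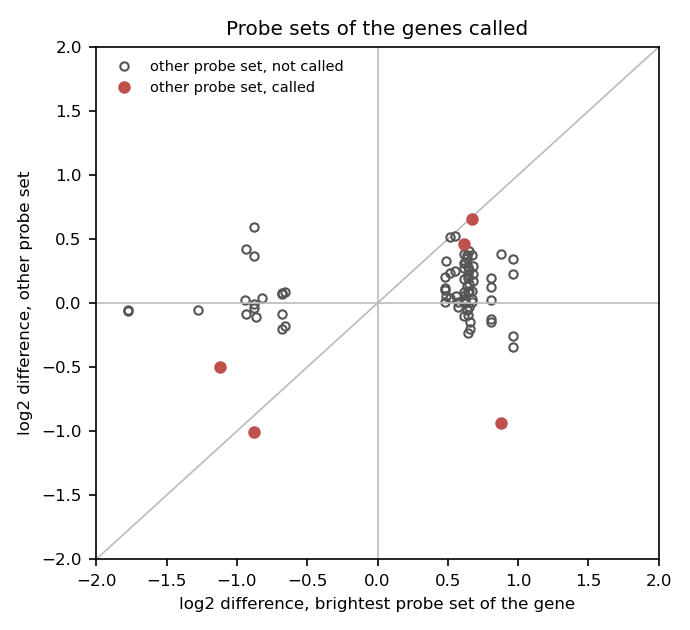
Log2 difference (CHN531 to CHN539 minus CHN308 to CHN310) of the brightest probe set of each called gene (horizontal) against that of its other tested probe sets (vertical), 83 in 33 genes; filled points passed the test over all probe sets and the diagonal marks equal differences. Most points lie near 0 on the vertical axis; 4 filled points share the sign of the called probe set and 1, for Srrm2, has the opposite sign.

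Probe sets that are not the brightest of their gene gave larger differences in well-known genes, chosen here after their values were seen. Actb read 427, 615, 688, 559 and 500.0 in CHN531 to CHN539 and 58.8, 131 and 88.8 in CHN308 to CHN310 through 1419734_at, a difference of 2.48 ± 0.25 (limma adjusted p = 0.00778). Through its brightest probe set, 1436722_a_at, Actb read 7800.1, 7819, 8162, 7336 and 7859 against 8037, 8373 and 8553 (difference -0.11, limma adjusted p = 0.532). Rtn4, the reticulon that shapes tubules of the endoplasmic reticulum, read 134, 118, 102, 155 and 124 against 479, 368 and 346 through 1421116_a_at, a difference of -1.50 ± 0.16 (limma adjusted p = 0.00864). Its brightest probe set, 1452649_at, differed by -0.23 (limma adjusted p = 0.335). Why the probe sets of a gene differed was not tested. Psap, the precursor of the lysosomal saposins, was lower in all 5 arrays through both of its probe sets, with differences of -1.08 (1421813_a_at, limma adjusted p = 0.0208) and -0.69 (1415687_a_at, limma adjusted p = 0.0690). With each probe set tested on its own, 234 of 23925 passed (0.978%), 151 higher and 83 lower, in 221 genes. Only 13 genes had 2 or more that passed, in the same direction for 12 of them. These 12 are Epha1, Gsk3b, Pik3r1 and Zfp148 of the 45, and 8 genes whose brightest probe set did not pass the test over genes. Zfp871, a zinc finger protein, differed by 1.02 and 1.02, and Ttc14 by 0.75 and 0.59. Atxn2, the RNA-binding ataxin-2, differed by 0.52 and 0.41, and Nipbl, which loads cohesin onto chromosomes, by 0.37 and 0.72. Lower in CHN531 to CHN539 were Arl2bp, a partner of the small GTPase Arl2 (-0.73 and -1.18), and Pip5k1a, a kinase that makes the membrane lipid phosphatidylinositol bisphosphate (-0.79 and -0.49). Mcoln1, a cation channel of lysosomes, differed by -0.54 in both of its probe sets, and Cant1, a calcium-activated nucleotidase, by -0.57 and -0.79. The brightest probe sets of Ttc14, Atxn2, Cant1, Zfp871 and Pip5k1a were not among them and differed by 0.54, 0.0067, -0.13, 0.064 and 0.31, the last with the opposite sign. All 24 probe sets of the 12 genes had a limma adjusted p under 0.05 over the 23925.

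The gene lists of the gut, the immune system, other tissues and stress responses held none of the 45 genes. Over their 777 tested genes limma called none. At an unadjusted p under 0.05 there were 53 (6.82%), against 11.5% of all genes tested. The lists' genes overlapped between the ranges in all but 41 (5.28%), against 11% not overlapping overall. Over the 52 lists measured, the level of a list in an array is its members' mean log2 deviation from the 8 knockouts. In 51 of the 52 the span of this level within CHN531 to CHN539 (highest minus lowest array) exceeded the difference between the means of the ranges. The exception was the list of immediate early genes. Such a span is wider than an SD. Against the SD within the ranges the difference was larger in several further lists, among them redox enzymes, neutrophils and B cells. In 11 lists, all with medians under 0.1 in size, the median difference and the difference in level had opposite signs.

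Immediate early and stress genes, which cells switch on within minutes of a stimulus or of handling, had a median difference of -0.26 over 20 tested members, against -0.0073 over all genes. Of the 20, 16 had a negative difference, 8 had an unadjusted p under 0.05, all lower (against 5.45% of all genes lower), and 5 did not overlap, all lower (5.78% of all genes). None passed the adjusted threshold. Zfp36, which destabilizes cytokine mRNAs, read 288, 285, 311.8, 261 and 249 against 396, 340.1 and 406 (difference -0.45, limma adjusted p = 0.155). Nr4a1, an orphan nuclear receptor, read 58.7, 50.4, 53.2, 57.9 and 63.1 against 82.1, 136 and 81 (difference -0.61, limma adjusted p = 0.241). All 3 arrays of CHN308 to CHN310 were higher for both genes, and CHN309 was the highest for Nr4a1. Dusp1, a phosphatase of MAP kinases, read 112, 161, 130.2, 141 and 112 against 169.9, 242 and 224 (difference -0.57, limma adjusted p = 0.241), and Ier2 169, 179, 192, 199 and 194 against 217, 254 and 226 (difference -0.30, limma adjusted p = 0.255). Egr1, the zinc finger factor of the same response, read 70.7, 86.1, 76.5, 84.3 and 59.3 against 78.7, 190.4 and 151, where CHN308 lay within the other range. In the level of the list knockout CHN308 (-0.031) lay near CHN539 (-0.029), and CHN309 and CHN310 lay higher, at 0.27 and 0.20. Controls CHN312 and CHN313 lay at 0.13 and 0.15.

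Enzymes of glutathione and redox defence had a small median difference, -0.074, and their levels did not overlap between the ranges, at -0.14, -0.10, -0.037, 0.025 and 0.031 against 0.062, 0.10 and 0.055. Of the 52 lists measured, 2 had levels without overlap, this one and enteric neurons and glia. Whether 2 of 52 is more than chance gives was not tested. Of 22 tested members 4 had an unadjusted p under 0.05, all lower (18.2%, against 5.45% of all genes), and none passed. Sod3, the extracellular superoxide dismutase, read 43.4, 36.9, 39.3, 56.3 and 56.2 against 66.1, 59.4 and 69.3 (difference -0.48, limma adjusted p = 0.192). Gclm, the modifier subunit of the first enzyme of glutathione synthesis, read 210.2, 177, 223, 161 and 210.4 against 279.9, 299.6 and 253 (difference -0.47, limma adjusted p = 0.227). Gsr, glutathione reductase, read 1339, 1137, 1120.3, 1310.0 and 1334 against 1694, 1501 and 1407 (difference -0.30, limma adjusted p = 0.364), and was lower in both controls, at 674 and 799.8. Of 17 tested genes of the growth hormone and IGF axis, 3 were lower and 1 higher at an unadjusted p under 0.05. Over all genes 5.45% were lower and 6.04% higher. None of the 17 passed. Igfbp2 and Igfbp4, both lower, were chosen after their values were seen. Igfbp2, an IGF binding protein, read 22.9, 26.5, 31.3, 24.9 and 23 against 39, 38.4 and 49 (difference -0.52, limma adjusted p = 0.0946), and Igfbp4 400.3, 307.8, 316, 307 and 378 against 579, 439 and 429 (difference -0.47, limma adjusted p = 0.308). The level of the enteric neuron and glia list also did not overlap, but by a narrow margin: its lowest value in CHN531 to CHN539 was 0.0066 and its highest in CHN308 to CHN310 was 0.0065.

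Lists of the gut epithelium differed little between the ranges, and no member of them passed. The median difference was 0.07 for small intestine epithelium, 0.073 for nutrient transporters, -0.087 for goblet cells, -0.027 for Paneth cells, 0.014 for crypt base stem cells and -0.14 for ion and water transport. Lgals4, a galectin of the enterocyte, read 6687, 7301, 7297, 6794 and 7104 against 6742, 6922 and 6912, an overlap with little spread in either range. For the lung lists the median was -0.0094 (alveolar type 2 cells), -0.075 (alveolar type 1 cells) and -0.12 (club and ciliated cells).

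**Figure D4:**
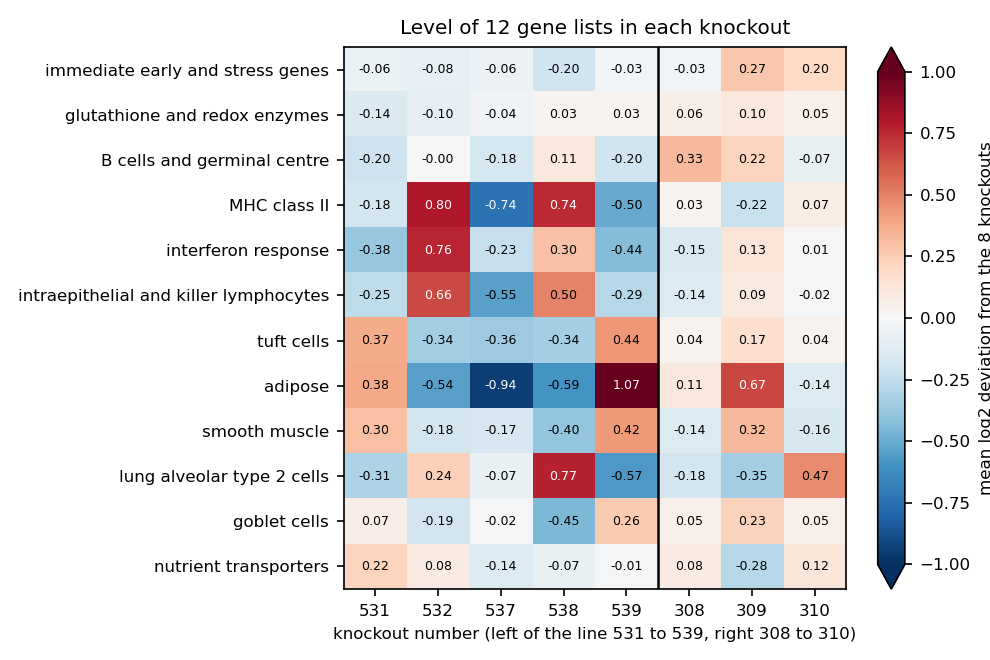
Level of 12 gene lists (rows) in each knockout (columns), as the members' mean log2 deviation from the mean of the 8 knockouts; the line parts CHN531 to CHN539 from CHN308 to CHN310 and the colour runs from blue (lower) to red (higher). MHC class II, interferon and killer lymphocyte lists are high in CHN532 and CHN538, and tuft cell, adipose and smooth muscle lists in CHN531 and CHN539, the last 2 also in CHN309.

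The wider differences lay among knockouts of the same range. Of the 6 lists with a median difference beyond 0.2 in size, 5 were of this kind: MHC class II (0.25), MHC class I and peptide loading (0.27), interferon response (0.20), adipose (-0.34) and liver (-0.32, 4 tested members). None of their members passed. The level of MHC class II, which presents peptides to helper T cells, was -0.18, 0.80, -0.74, 0.74 and -0.50 in CHN531 to CHN539 and 0.03, -0.22 and 0.075 in CHN308 to CHN310. Knockouts CHN532 and CHN538 were above all the others and CHN537 and CHN539 below them. H2-Aa, a class II chain, read 1367, 3686, 648, 3492 and 939 against 1726, 1363 and 1737. Ciita, the master activator of class II genes, read 15, 32.3, 14.1, 27.3 and 14.6 against 15.9, 16 and 20.1 and followed the same order at its top. H2-DMa, which loads peptides onto class II, read 155, 442, 60.3, 351 and 84.2 against 180.0, 134 and 155, and H2-Ea, another class II chain, 412, 1331, 487, 1299.7 and 368 against 497, 236 and 750.3.

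The same pair was high in interferon-induced genes. Igtp, an interferon-induced GTPase, read 43.3, 725, 65.4, 349 and 37.6 against 113, 132 and 139, and Ubd, a ubiquitin-like protein induced by interferon gamma, 19, 265, 11.3, 157 and 13.7 against 22.2, 24.8 and 37.1. Nlrc5, the activator of class I genes, read 12, 81.6, 12.5, 49.4 and 14.3 against 22.5, 18.1 and 24.6. Psmb8, an immunoproteasome subunit, read 285, 923, 170.2, 741 and 229.7 against 339.6, 294 and 341, and the T cell chemokine Cxcl9 13.9, 212, 19.1, 186 and 16.5 against 52, 34.3 and 56.6. In each of these 5 genes knockouts CHN532 and CHN538 were the highest of the 8. Psmb8 and Cxcl9 were chosen after their values were seen, and Igtp and Ubd for their large SD. Gzma, a granule protease of killer lymphocytes, read 212, 649.5, 42.7, 463 and 138 against 158, 335 and 217, lowest in CHN537. The lists of T cells (0.46 in CHN532 and 0.34 in CHN538) and of intraepithelial and killer lymphocytes (0.66 and 0.50) were high in the same arrays. The level of the alveolar type 2 list, which includes the class II invariant chain Cd74, was 0.24 in CHN532 and 0.77 in CHN538. It was 0.47 in CHN310, where MHC class II stood at 0.075. The part of lung transcripts in these levels was not tested. Other interferon genes were ordered differently. Ifih1, a sensor of double-stranded RNA, read 213, 326, 237, 221 and 226 against 183, 194 and 196, without overlap (difference 0.44, limma adjusted p = 0.230). Oas2, which makes the second messenger of RNase L, read 25.7, 24.4, 34.7, 23.2 and 30.6 against 29.2, 41.9 and 32.8, highest in CHN309.

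Knockouts CHN531 and CHN539 shared another set. Dclk1, a kinase that marks tuft cells (the chemosensory cells of the gut epithelium), read 47.3, 12, 12.6, 11.3 and 48.3 against 25.1, 28.6 and 25. Rgs13, a regulator of G protein signalling in tuft and mast cells, read 94.7, 17.5, 17, 17.2 and 99.2 against 37.6, 49.2 and 51.9. Retnla, a resistin-like protein of type 2 immunity, read 262, 32.6, 27.1, 47.6 and 206 against 71.7, 105 and 80.8, and Siglecf, a sialic acid receptor of eosinophils, 31.8, 10.4, 9.14, 10.3 and 45.5 against 19.4, 24.4 and 18.9. In all 4 genes CHN531 and CHN539 were the highest arrays, the 3 arrays of CHN308 to CHN310 lay in between, and CHN532, CHN537 and CHN538 were the lowest. These 4 genes were chosen after their values were seen, so their common order was part of the choice. The tuft cell list stood at 0.37 and 0.44 in CHN531 and CHN539 and between -0.36 and -0.34 in CHN532, CHN537 and CHN538. The list of eosinophils and type 2 response stood at 0.45 and 0.40, against -0.41, -0.49 and -0.046. Both lists hold Siglecf, so their levels are not independent of each other. Retnlb, the resistin-like protein that goblet cells secrete against parasites, read 5207, 937, 2472, 355 and 6919 against 3226, 3842 and 4118, and was also highest in CHN539 and CHN531. Capn13, a calpain protease, read 519, 63.2, 40.3, 59.3 and 390.2 against 211, 548 and 265, where CHN309 was the highest.

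Smooth muscle and adipose transcripts were high in the same 2 arrays and in CHN309. Actg2, the actin of visceral smooth muscle, read 1848, 831, 882, 754 and 1738 against 1175, 1848 and 1193, highest in CHN531, CHN539 and CHN309. Fabp4, the fatty acid binding protein of adipocytes, read 471, 251, 128, 250.2 and 985 against 352, 503 and 343, and Car3, an adipocyte carbonic anhydrase, 475, 153, 54.6, 133 and 826 against 364, 591 and 246. The adipose list ran from -0.94 in CHN537 to 1.07 in CHN539, the widest spread of any list within CHN531 to CHN539. Lpl, lipoprotein lipase, read 98.1, 54.9, 38.3, 81.4 and 258 against 119, 204 and 93, and Pparg, the receptor that drives adipocyte differentiation, 45.1, 41.4, 61.3, 26.7 and 81.5 against 54.1, 123 and 57.3. Pck1, which makes phosphoenolpyruvate in fat and liver, read 78.8, 33.8, 27.6, 31 and 114 against 50.7, 96.7 and 56. Of the liver list, Tat, the aminotransferase of tyrosine breakdown, read 132, 94.9, 133, 152 and 306 against 159, 256 and 178 and Apoh, a plasma apolipoprotein, 83.3, 28.4, 24.4, 19.5 and 152 against 48.2, 83 and 73, both with CHN539 highest. The other 2 tested members were lowest in CHN539. Ttr, the thyroid hormone carrier transthyretin, read 37.9, 40.3, 48.9, 38.7 and 30.1 against 43.7, 50.2 and 44.5. Cps1, the first enzyme of the urea cycle, read 1496, 1516, 1455, 1562 and 1255 against 1574, 1398 and 1437. How much of the sample was gut wall or attached fat is not recorded in the labels.

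Single arrays carried other large differences. Knockout CHN309 stood alone in Car2, a cytosolic carbonic anhydrase (1050.3 against 40.3 to 66.6 in the other 7). The same array stood alone in Cyp2c55, a cytochrome P450 of the colon and liver (824 against 7.19 to 11.5), and was highest in Cyp2c65 (43.3, 79.5, 162, 15.9 and 39.9 against 47.9, 592 and 77.2). Car1, the carbonic anhydrase of the colon and of red cells, read 12.8, 240.5, 2682, 10.1 and 108 against 137, 5827 and 1119.6, highest in CHN309, CHN537 and CHN310. Defa39, an alpha-defensin of Paneth cells whose probe sets can share sequence with its many relatives, read 639.6, 3822, 3007, 3817 and 204 against 3231, 1943 and 2855, lowest in CHN539 and CHN531. Rpgrip1, a ciliary protein of photoreceptors, was at 6.58 in CHN531 and at 149 to 482 in the other 7. Cd79a, a chain of the B cell receptor, read 19.3, 30.01, 21.8, 35.9 and 15.6 against 49.3, 46.4 and 28.5, highest in CHN308 and CHN309. None of the 12 genes with the largest SD over the 8 knockouts had an unadjusted p under 0.05 between the ranges, and all 12 overlapped.

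Over all 13644 genes, the number range held 20.2% of the total variance among the 8 knockouts. It takes 1 of the 7 degrees of freedom among 8 arrays, which is 14.3%. The letter M or F held 13.8% and H or L 9.05%. The first principal component, with 33.0% of the variance, ran from knockouts CHN539 and CHN309 to CHN538 and CHN532 and mixed the ranges. The number range held 12.9% of the variance of its scores. The second, with 20.4%, separated the ranges: scores lay between 0.26 and 14.5 in CHN531 to CHN539 and between -14.7 and -6.03 in CHN308 to CHN310, and the range held 71.7% of their variance. On it CHN531 and CHN539 lay farthest from CHN308 to CHN310, and CHN538 nearest.

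**Figure D5:**
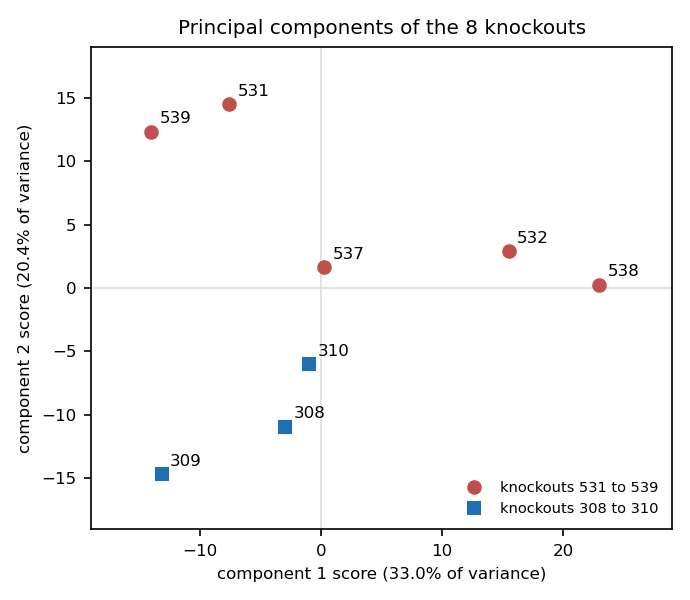
Scores of the 8 knockouts on the first 2 principal components of the log2 values of 13644 genes, circles for CHN531 to CHN539 and squares for CHN308 to CHN310, with the share of variance on each axis. The ranges overlap on component 1 (33.0%) and do not overlap on component 2 (20.4%).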

How the data were processed

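RNA of 10 mice was hybridized to 1 array each. The authors deposited 1 linear intensity per probe set and array, and how these were summarised and normalized is not given in the sources used here. Quartiles were nearly equal on all arrays, so no normalization was added. Of 45101 probe sets, 34945 have 1 symbol in the platform annotation (updated through RefSeq, GRCm38.p6, used for names only; the files name no build, so no positions are given). They cover 18193 genes. The brightest probe set over 10 arrays stood for each gene, and genes at or under the 25th percentile were left out, leaving 13644. Values were log2(intensity + 16), which understates differences of dim genes. The 8 knockouts were fitted with limma 3.58.1 (lmFit and eBayes, R 4.3.3) on number range and letter M or F, with Benjamini-Hochberg adjustment at 0.05. The fit was tested on simulated data. Array controls were tested in a fit of every probe set, added after the data were seen.

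Animals are taken as separate by their numbers, so the p-values cover no more than their spread. Genes named are the 15 largest per direction that passed, up to 4 per list, the 12 with the largest SD and fixed checks. A further 18 genes, and the examples of probe sets, were chosen after their values were seen. These 18 genes are Egr1, Sod3, Gclm, Gsr, Igfbp2, Igfbp4, Lgals4, H2-Aa, Psmb8, Cxcl9, Gzma, Dclk1, Rgs13, Retnla, Siglecf, Actg2, Fabp4 and Cd79a. The members and lists were chosen with earlier results of these data known. In all, 28 other settings, and 1 chosen after seeing the data, were tried (figures and tables with Python 3.11.15, pandas 2.3.3, numpy 2.4.6 and matplotlib 3.10.9).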

Additional observations from a re-analysis of the deposited data

Results flagged for a closer look

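Within the 5 arrays of CHN531 to CHN539, the gap of the highest or lowest array was tested in 143 sets of values (named genes and list levels). In 11 sets it stood far from the other 4. Chance gives about 1 in 20 in sets that were not selected. The sets include genes picked for a large SD or after their values were seen, so that rate does not apply to them. The 3 arrays of CHN308 to CHN310 are too few for it.

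Knockout CHN532, the only F animal of its range, stood apart in 4 sex-linked genes: Xist (1521), Eif2s3y (3.6), Kdm5d (4.65) and Uty (10.1). For these 4 the gap was fixed by its letter. Knockout CHN532 was also highest in Rpl27a, at 228 against 132 to 149.8 in the other 4, and in Ifih1, at 326 against 213 to 237. Knockout CHN538 was lowest in Epha1, at 31.1 against 39.7 to 43.5, and in Cftr, at 19.7 against 30.5 to 35.4. It was highest in the level of blood and lymph endothelium, at 0.43 against -0.17 to -0.13, and the alveolar type 2 and type 1 lists were also highest there, at 0.77 and 0.52. Knockout CHN531 was lowest in Rpgrip1, at 6.58 against 239.9 to 482. Knockout CHN539 was highest in the level of enteric neurons and glia, at 0.10 against 0.0066 to 0.024.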

How the results depend on the processing

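The count of 45 genes moved with the model: 197 with no covariate, 132 with the letter H or L in place of M or F, 12 with both letters, 83 with lung transcripts as a covariate and 88 with all 10 arrays in the fit. It was 248 among F animals alone (1 against 2 arrays), 5 among H animals, and 0 among M animals (4 against 1; 508 genes with an unadjusted p under 0.05 in limma) and among L animals (2 against 1; 1305 genes). A lone array is assumed to vary like the others. It was 17 with the mean of a gene's probe sets, 234 with all probe sets, 401 with every probe set including array controls (added after the data were seen) and 19 without knockouts CHN538 and CHN310, 5 of them among the 45. Leaving out 1 array in turn gave 0 to 58. Other pseudocounts, filters, quantile normalization, the smooth muscle covariate and eBayes with trend and robust gave 38 to 61. All 45 genes kept their sign in each alternative that tested them. Genes of the lists that passed, 0 in all, were 1 with all 10 arrays, 3 with all probe sets, 70 among F animals, 1 with H or L, 2 with the lung covariate, 3 with no covariate, 9 without CHN538 and CHN310, and 0 to 1 without single arrays. The share of variance held by the number range was 16.8% to 25.6% without single arrays. No paired analysis was possible because the replicate numbers were given in accession order and pair no samples. Dim genes, near the median intensity, are limited by background.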

Other observations

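Further lists varied among the knockouts without following the number range. Heat shock proteins and chaperones were lowest in knockout CHN539 (-0.47) and highest in CHN538 (0.33), and stood at -0.57 and -0.33 in controls CHN312 and CHN313. Genes of the circadian clock stood at 0.25 in CHN531 and 0.17 in CHN539, against -0.15 in CHN537 and -0.11 in CHN538. Cholesterol and fatty acid synthesis was highest in CHN531, at 0.42, against -0.14 to 0.025 in the other 7. Genes of hypoxia and glycolysis were lowest in CHN538, at -0.42. The erythroid list ran from -0.65 in CHN531 to 1.03 in CHN309. Its 7 tested members include Car1 and Car2, in which CHN309 was the highest knockout (5827 and 1050). The level is therefore not a measure of red cells alone.

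Probe sets without a single gene symbol leaned one way. Of 4325 tested in the fit of every probe set, 112 were higher and 9 lower in CHN531 to CHN539 at a limma adjusted p under 0.05. Over every probe set in that fit, 401 of 28315 passed (1.42%) in either direction. Among the 23925 probe sets with 1 symbol, tested alone, the split was 151 higher and 83 lower (0.978% in all). That split comes from a separate fit with its own adjustment, so its counts are not directly comparable with those of the fit of every probe set. One array control of the mouse B2 repeat, a short interspersed element found in many transcripts, read 7440.3 to 7897 in CHN531 to CHN539 and 6455 to 7319 in CHN308 to CHN310 (difference 0.13, limma adjusted p = 0.408). The other one overlapped, at 141 to 149 against 118 to 161 (difference 0.043).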
